A study of Drosophila melanogaster with 3 samples.

Results

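Near intergenic peaks are binding sites that lie between genes, outside the core promoter but close to a gene start. The sites described here come from chromatin immunoprecipitation and sequencing (ChIP-seq) of the Drosophila melanogaster protein Lozenge (gene lz). A peak was taken when its summit lay inside no annotated gene and 501 to 3000 bp from the nearest transcription start site (TSS), on the dm6 build with Ensembl gene models and with transposable elements left out. Of the 8048 peaks in the authors' thresholded set, 637 met this rule (7.92%, 95% Wilson interval 7.35 to 8.53). The other peaks lay within 500 bp of a TSS (3431 promoter peaks), in introns further from a TSS (3102), between genes over 3000 bp from a TSS (691 far intergenic peaks) or in exons (187). All samples were whole white prepupae, pooled males and females of unstated age, of a transgenic line that stably expresses lz with GFP at its C-terminus; the precipitation used an antibody to GFP. They form a single group of 3 biological replicates with no second genotype or treatment. In whole animals, strong binding in few cells and weak binding in many cannot be told apart, and the labels do not say in which cells the tagged protein was made.

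Lozenge belongs to the Runx family, whose members bind short sites through a shared Runt domain and raise or lower transcription with partner proteins. It is known for specifying crystal cells, a fly blood cell type, for its part in the fate of photoreceptors, cone and pigment cells of the eye, and for its role in olfactory sensilla of the antenna. Intergenic DNA close to a fly gene often holds enhancers, which drive transcription in particular tissues, as well as core promoter elements of starts that the annotation lacks. White prepupae are at the onset of metamorphosis, when a pulse of the steroid hormone ecdysone switches many genes.

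Summit windows, the 101 bases centred on a summit, are shown for the pair of strongest peaks and for the pair of strongest peaks that held the letters of each of 4 motifs the results turn on. The bases are those of the RefSeq dm6 genome, + strand, 5′ to 3′, and capitals mark the motif letters on either strand. The pair that leads by strength, beside COX7AL2 and the cadherin gene ds, held none of the 20 motifs searched.
COX7AL2 (chr2L:2199295-2199395): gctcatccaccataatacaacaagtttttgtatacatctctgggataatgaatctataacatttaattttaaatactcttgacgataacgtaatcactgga
ds (chr2L:715508-715608): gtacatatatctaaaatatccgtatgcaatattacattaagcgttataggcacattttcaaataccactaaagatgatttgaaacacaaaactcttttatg

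The letters bound by GATA factors, NGATAN with A or T first and A or G last, were in the windows beside the gustatory receptor gene Gr93d and the noncoding gene lncRNA:CR45564.
Gr93d (chr3R:21849119-21849219): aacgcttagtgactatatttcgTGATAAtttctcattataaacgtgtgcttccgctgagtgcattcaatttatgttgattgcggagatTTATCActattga
lncRNA:CR45564 (chr3R:31687104-31687204): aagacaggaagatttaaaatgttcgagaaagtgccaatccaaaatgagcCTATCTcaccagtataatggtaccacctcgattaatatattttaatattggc

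The homeodomain letters TAATTA were in the windows beside lncRNA:CR42719 and lncRNA:CR45745.
lncRNA:CR42719 (chr3L:618451-618551): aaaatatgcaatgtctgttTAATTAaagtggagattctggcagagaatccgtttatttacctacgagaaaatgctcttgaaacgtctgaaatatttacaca
lncRNA:CR45745 (chr3L:10976622-10976722): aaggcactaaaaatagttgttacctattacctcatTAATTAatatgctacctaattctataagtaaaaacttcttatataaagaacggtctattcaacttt

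The letters CAGGTA, bound in the early embryo by the zinc finger protein Zelda, were in the windows beside kay, which encodes the fly Fos protein, and CG43658.
kay (chr3R:29763311-29763411): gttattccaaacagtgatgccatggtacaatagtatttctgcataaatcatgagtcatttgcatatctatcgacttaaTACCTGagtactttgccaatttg
CG43658 (chrX:17562032-17562132): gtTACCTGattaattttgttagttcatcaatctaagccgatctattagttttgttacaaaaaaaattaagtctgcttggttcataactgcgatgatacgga

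The Runx letters, NACCNCA with A or G at each N, were in none of the 15 strongest windows, and the strongest peaks that held them lay past the ends of Sid and RhoL.
Sid (chr3R:28672361-28672461): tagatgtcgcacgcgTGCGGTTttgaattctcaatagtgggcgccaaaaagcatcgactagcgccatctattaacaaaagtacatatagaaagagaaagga
RhoL (chr3R:9496884-9496984): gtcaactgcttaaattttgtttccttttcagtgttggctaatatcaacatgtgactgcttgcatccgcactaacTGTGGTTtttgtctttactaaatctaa

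Read depth is unknown, since the deposited lists hold no read counts, so each replicate was represented by its 8048 highest peaks by the authors' signal. Near intergenic peaks made up 7.01%, 8.71% and 7.67% of these in replicates 1, 2 and 3 (564, 701 and 617 peaks; mean 7.79% ± 0.858, SD, n = 3). Replicate 2 had the highest share of near intergenic peaks and the lowest share of promoter peaks, 37.7% against 46.6% in replicate 1 and 42.5% in replicate 3. The number, rank, side and overall density of the peaks, their recovery against the other classes, their base composition and their motif shares against flanks were therefore also computed without each replicate. An exact two-sided sign-flip permutation test over 3 replicates cannot give a p below 0.25, so no comparison here can pass 0.05, and differences are set against the spread between replicates.

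The near intergenic peaks were of middling strength. Their ranks in the thresholded set, where rank 1 has the highest signal, ran from 69 to 8044 with a median of 4269 and quartiles of 2316 and 6183. Only 60 (9.42%, Wilson interval 7.39 to 11.9) were among the 1000 strongest peaks, compared with 15.3% of promoter, 11.1% of intronic and 7.09% of far intergenic peaks. The median rank in the replicates' own lists was 4166 ± 326 (SD, n = 3).

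The 15 strongest near intergenic peaks were each found in all 3 replicates, the same replicates whose pooled data gave the thresholded set. The strongest lay 1433 bp upstream of COX7AL2, at rank 69 in the thresholded set and ranks 57, 82 and 76 in replicates 1 to 3. The next lay 575 bp upstream of ds, which encodes Dachsous, a giant cadherin that acts as ligand of Fat in the Hippo and planar polarity pathways, with replicate ranks of 104, 139 and 109. A peak 1157 bp past the end of CG13898 ranked 115, 120 and 94 in the replicates. All 3 sites thus kept a place among the 139 highest peaks of every replicate.

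The peak beside kay lay 2634 bp upstream and ranked 140, 115 and 156 in the replicates. Fos, the product of kay, is a leucine zipper factor of the JNK pathway with roles in thorax closure and wound repair. A peak 1818 bp upstream of E(spl)malpha-BFM, a Notch target of the Bearded family, ranked 175, 257 and 267. The peak nearest the TSS of DNAlig3, a DNA ligase gene, lay in a gap of 437 bp between Sol1 and Cyp9f2 and ranked 172, 355 and 231. The other genes of the strongest 15 were lncRNA:CR43650, CG17896, Gr93d, lncRNA:CR42794, lncRNA:CR45937, CG43658, lncRNA:CR45643, CG12643 and lncRNA:CR45234, at thresholded ranks between 117 and 240.

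Replicate recovery of the near intergenic peaks was close to that of the whole set. The thresholded peaks come from the same 3 replicates pooled, so recovery is in part given and is no independent check. In all 3 replicates 418 peaks (65.6%, Wilson interval 61.8 to 69.2) had a summit within 100 bp, compared with 65.0% of all 8048 thresholded peaks. A further 143 were found in 2 replicates, 72 in 1 and 4 in none. Replicates 1, 2 and 3 held 81.6%, 86.5% and 84.9% of the near intergenic peaks (mean 84.4% ± 2.48, SD, n = 3). Near intergenic peaks were recovered 1.62 points more often than promoter peaks, with an SD of 9.66 over replicates, and 1.35 ± 1.51 and 1.42 ± 1.34 points less often than intronic and far intergenic peaks (exact sign-flip permutation p = 1, 0.5 and 0.5). None of these differences had the same sign in every replicate.

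Recovery fell with rank, in part by construction, because each replicate list was itself cut at 8048 peaks. With all 30000 calls of each replicate 90.6% of the near intergenic peaks were found in all 3. Of the 293 near intergenic peaks among the 4024 strongest thresholded peaks, 95.2% were found in all 3 replicates, and of the 344 weaker peaks 40.4% were. When the ranking was cut into 8 equal classes, the share was 100% of 61 peaks in the strongest class, 57.9% of 95 in the sixth and 3.26% of 92 in the weakest. Recovery varied less with position: it was 62.8% at 501 to 1000 bp, 67.3% at 1000 to 1500 bp and 64.8% at 2500 to 3000 bp from the TSS, with overlapping Wilson intervals.

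**Figure D1:**
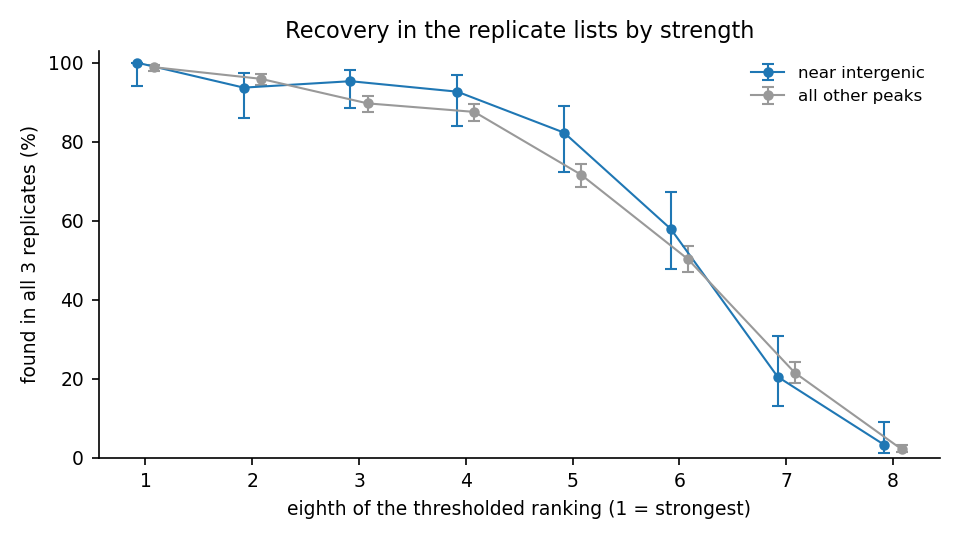
Share of thresholded peaks found in all 3 replicates (y axis, percent) in 8 equal classes of rank (x axis, strongest at left) for near intergenic peaks (blue) and all other peaks (grey); bars are 95% Wilson intervals. Both lines fall from about 100% to 3.26% (near intergenic) and 2.19% (others) in the weakest class.

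The summits lay toward the near end of the distance range. The median distance to the nearest TSS was 1300 bp, with quartiles of 822 and 1956 bp and a range of 502 to 2996 bp. Since less DNA lies at long distances inside gaps between genes, counts were divided by the DNA that the rule could take, 11.0 Mb or 8.25% of the genome. Density was 57.7 near intergenic summits per Mb, compared with 60.2 summits per Mb over the genome, 189 within 500 bp of a TSS, 58.8 in introns and 27.4 in far intergenic DNA. In the replicates it was 56.9 ± 6.26 (SD, n = 3) for near intergenic DNA, 29.0 ± 2.71 per Mb above far intergenic DNA (exact sign-flip permutation p = 0.25, higher in 3 of 3 replicates). Against introns the difference was -2.19 ± 2.46 per Mb (exact sign-flip permutation p = 0.5), below its spread.

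Within the range, density fell with distance to about 2000 bp and was then level. It was 77.2 per Mb at 501 to 1000 bp, 65.8 at 1000 to 1500 bp, 50.8 at 1500 to 2000 bp, 41.4 at 2000 to 2500 bp and 41.5 at 2500 to 3000 bp, each class starting above its lower limit. The nearest class exceeded the farthest by 32.6 ± 4.36 per Mb over replicates, with a range of 28.5 to 37.1 (exact sign-flip permutation p = 0.25). The rule's own limits cut through a continuous series of distances. Just inside 501 bp lay peaks of CG7720 (502 bp), lncRNA:CR45424 (504 bp) and Npc2b (505 bp), and just outside it those of lncRNA:marge (499 bp), CG11899 (496 bp) and Jhbp4 (494 bp). Just inside 3000 bp lay peaks of CG17570 (2996 bp), CAH15 (2993 bp) and Trc8 (2977 bp), and just outside it those of Fer2LCH (3013 bp), dls (3014 bp) and lncRNA:CR44501 (3018 bp).

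**Figure D2:**
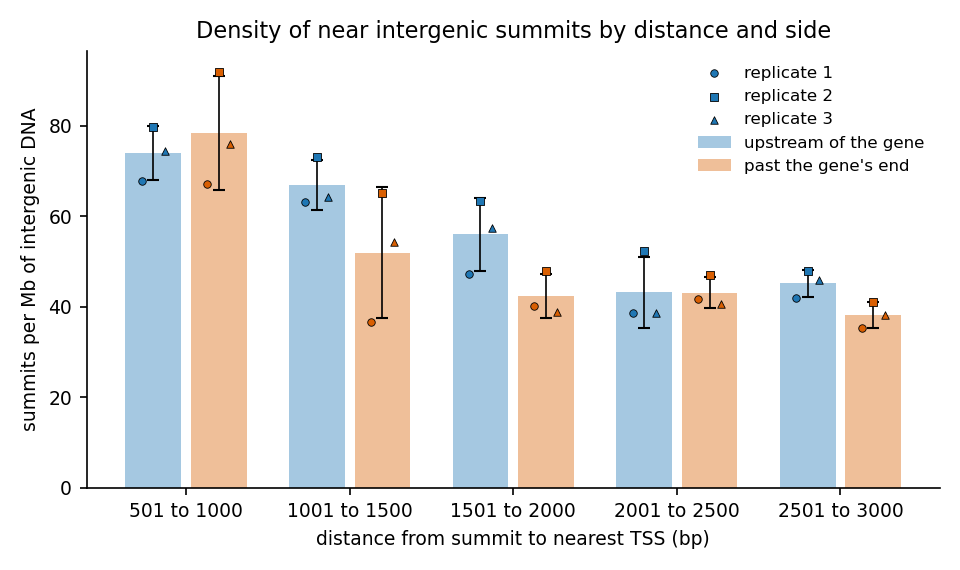
Near intergenic summits per Mb of intergenic DNA (y axis) by distance to the nearest TSS (x axis) and by side of that gene, as replicate means (bars), SDs (error bars) and single replicates (points). Upstream DNA falls from a mean of 73.9 per Mb in the nearest class to 45.2 in the farthest, and DNA past gene ends falls from 78.4 to 38.1.

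Most peaks lay upstream of the gene with the nearest TSS. Upstream summits numbered 465 (73.0%, Wilson interval 69.4 to 76.3) and those past the gene's end numbered 172 (27.0%). Upstream DNA also made up 67.8% of the DNA the rule could take, and the densities were 62.1 per Mb upstream and 48.5 per Mb past the end. Over replicates upstream density was higher by 11.0 ± 1.09 per Mb (exact sign-flip permutation p = 0.25, higher in 3 of 3 replicates). This difference was not adjusted for distance, with which density fell. Upstream DNA lay nearer to starts: 2.26 of its 7.48 Mb was at 501 to 1000 bp, compared with 0.565 of 3.55 Mb past gene ends. The order was not seen in 2 of the 5 distance classes: at 501 to 1000 bp the means were 73.9 ± 5.99 per Mb upstream and 78.4 ± 12.5 past the end, and at 2000 to 2500 bp 43.2 ± 7.92 and 43.1 ± 3.46.

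Gaps between genes differed little by the direction of their flanking genes. Divergent gaps, with a gene start at either edge, held 192 summits at 61.3 per Mb, tandem gaps 340 at 58.0 and convergent gaps 105 at 52.3. The gap around a summit had a median length of 5277 bp and ranged from 234 to 245765 bp. For 32 of the 637 peaks the gene with the nearest TSS was not the gene at either edge of the gap, as at DNAlig3 and ds.

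The nearest start was that of a protein-coding gene for 405 peaks (63.6%) and of a noncoding RNA gene for 209 (32.8%), of which 203 had long noncoding RNA symbols. A further 16 were nearest a tRNA gene, 4 a pseudogene and 3 a small nucleolar RNA gene. Density was 67.6 ± 10.7 per Mb beside noncoding RNA starts and 53.2 ± 4.49 beside protein-coding starts, a difference of 14.5 ± 6.34 per Mb (SD, n = 3; exact sign-flip permutation p = 0.25, higher in 3 of 3 replicates). By count, 85.4% of peaks nearest a coding start were upstream of it, compared with 50.7% of those nearest a noncoding RNA start. The DNA that the rule could take on each side was not counted by type of gene. Whether these shares differ from those of the DNA was therefore not tested. Of the 232 peaks at starts other than coding ones, 57 had a coding TSS within 3000 bp and 175 did not; their median distance to a coding TSS was 7046 bp.

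The peaks belonged to 537 genes, of which 354 were protein-coding and 163 noncoding RNA genes. These were 2.54% of 13945 protein-coding genes and 5% of 3261 noncoding RNA genes. A promoter peak was also present at 111 of the 354 coding genes (31.4%, Wilson interval 26.7 to 36.4), compared with 27.0% of all coding genes. Among the noncoding RNA genes 42 of 163 (25.8%, interval 19.7 to 33.0) also had a promoter peak, compared with 9.97% of all such genes.

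Some near intergenic peaks came in groups. Another thresholded summit lay within 1000 bp of 207 of them (32.5%, Wilson interval 29.0 to 36.2), compared with 28.6% of promoter, 29.7% of intronic and 23.7% of far intergenic peaks. The interval overlapped those of promoter (27.1 to 30.1) and intronic peaks (28.1 to 31.3), but not that of far intergenic peaks (20.7 to 27.0). Neighbouring near intergenic summits within 3000 bp of each other formed 86 clusters with 208 members. Some clusters were pairs of close summits, such as those 201 bp apart at Eip75B and 199 bp apart at bin. Another thresholded summit lay within 200 bp of 17 of the 637 peaks, while the median peak width was 430 bp. That count leaves out further pairs closer than this width. Besides Eip75B, pairs just beyond 200 bp included those at ph-d and dsx (202 bp each), SP1029 (203 bp) and CG12268 (211 bp). Whether such close summits are separate sites was not tested. At least 2 peaks were nearest to each of 76 genes, and at least 3 to each of 17.

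The gene with most peaks was Dyro, with 6 upstream summits within 2310 bp at ranks 1003, 1728, 2154, 4226, 4415 and 5306. Of these, 4 were found in all 3 replicates and 2 in 2 replicates. lncRNA:CR43883 had 5 summits, on both sides of the gene, with a best rank of 1885. CG13898 had 4, with the summit at rank 110 followed by 1365, 2729 and 4469.

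In 2 of the next genes by number the gap was shared with a gene of the lists described below. lncRNA:CR45243 had 4 summits, and the strongest (rank 311; replicate ranks 471, 215 and 255) lay between it and fng, whose product Fringe is a glycosyltransferase that modifies Notch. lncRNA:CR45234 had 3 summits at ranks 240, 608 and 3205, all in its gap with the cell death gene hid. lncRNA:CR45643 also had 3, with a best rank of 223, in a cluster flanked on the right by tara. Other genes with 3 peaks each were the cadherin gene ft, the rhodopsin gene Rh5, stck, which encodes a focal adhesion protein, and chinmo, which encodes a zinc finger factor of developmental timing; those at stck were at ranks 1911, 2311 and 3556.

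By chromosome arm, near intergenic density was highest on 3L. It was 73.1, 92.7 and 77.4 per Mb in replicates 1, 2 and 3, the highest arm in each, and 82.1 per Mb in the thresholded set with 192 peaks. The thresholded densities were 56.1 per Mb on 2L, 46.4 on 2R, 50.5 on 3R, 51.2 on X and 42.6 on the small chromosome 4, where there were 4 peaks. Over replicates 3L exceeded the mean of 2L, 2R, 3R and X by 31.0 ± 5.32 per Mb (exact sign-flip permutation p = 0.25), a contrast chosen after the arm values were seen. For all thresholded peaks the density on 3L was 61.4 per Mb against 60.2 over the genome. On 3L 47.4% of the near intergenic peaks were in the clusters described above, compared with 17.6% to 38.0% on 2L, 2R, 3R and X. Denser summits form more clusters by the definition used, so this share is no separate measure.

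**Figure D3:**
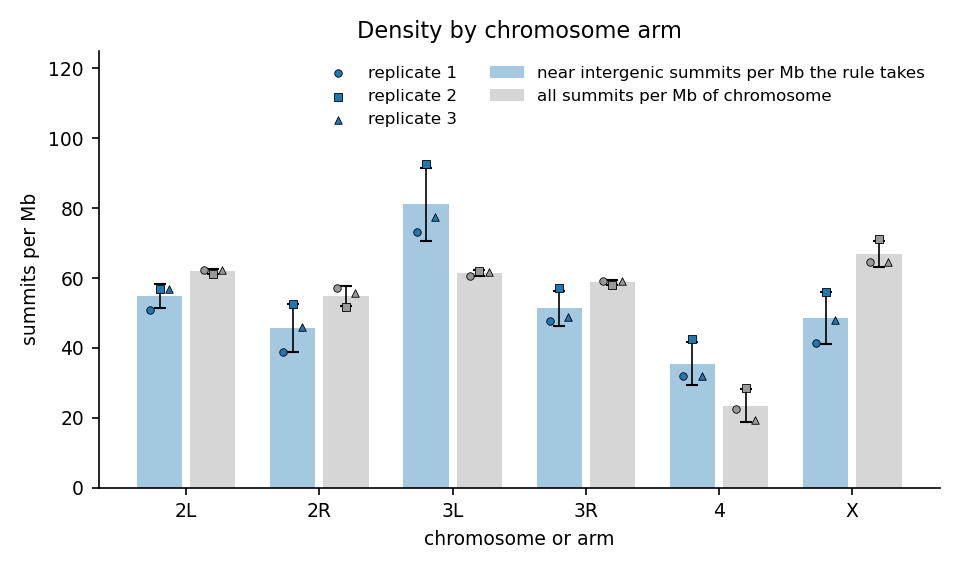
Near intergenic summits per Mb of the DNA the rule takes (blue) and all summits per Mb of chromosome (grey) by chromosome arm (x axis), as replicate means (bars), SDs (error bars) and single replicates (points). Near intergenic density on 3L averages 81.1 per Mb, while all summits on 3L average 61.4.

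The DNA under the summits was rich in A and T. G and C made up 33.0% of the summit windows and 43.5% of windows 500 bp to the left, and 502 of 637 summits (78.8%) were lower than their own flank. The difference was -9.08, -10.3 and -9.96 percentage points in replicates 1, 2 and 3 (mean -9.77 ± 0.622, SD, n = 3; exact sign-flip permutation p = 0.25). All bases that the rule could take held 40.3%. In steps along the DNA, G and C rose to 45.1% at 300 bp to the left of the summit and 45.0% at 350 bp to the right, fell to 32.6% at the summit and returned to 41.0% by 700 bp to the left. Near intergenic summits had 2.28 ± 0.994 points less G and C than promoter summits, 0.41 ± 0.383 points more than intronic and 1.06 ± 0.606 points more than far intergenic summits, each with the same sign in 3 of 3 replicates (exact sign-flip permutation p = 0.25 each). The motifs below differ in how many of their letters are A or T. The part of base composition in their shares, whether higher or lower at summits, was not tested for any motif.

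**Figure D4:**
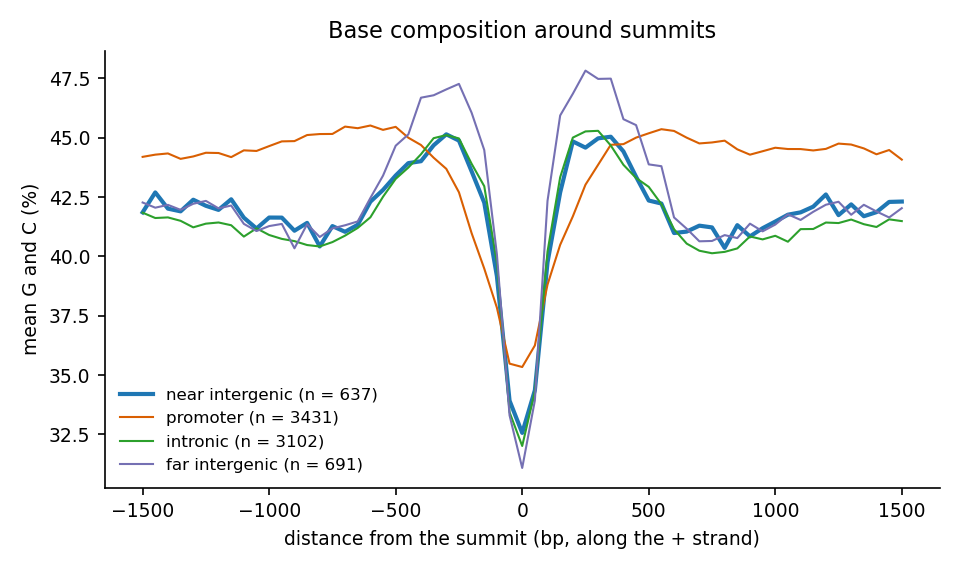
Mean G and C (y axis, percent) in windows of 51 bp at steps of 50 bp from the summit (x axis) for the thresholded near intergenic, promoter, intronic and far intergenic peaks. The near intergenic line dips to 32.6% at the summit between shoulders near 45%, and the promoter line is higher at most distances.

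Motif letters were counted on both strands, a window counting once, in summit windows and in the flank windows. The Runx letters were in 22 of 637 summit windows (3.45%, Wilson interval 2.29 to 5.17) and in 37 flanks (5.81%), compared with 2.68% of all 8048 summit windows. Replicates 1, 2 and 3 had 18, 24 and 22 summit windows against 30, 30 and 28 flanks, a difference of -1.32 ± 0.703 points (SD, n = 3). The Runx letters were thus less frequent at the summit than 500 bp to its left in each replicate. With flanks 500 bp to the right the contrast nearly closed, to 22 thresholded summit windows against 24 flanks (-0.31 points). The 22 peaks had ranks from 1408 to 8043; among those in all 3 replicates were peaks beside dmGlut, slow and bib, which encodes a channel-like protein of the Notch pathway's neurogenic group.

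GATA letters were the most frequent of the motifs higher at the summits. They were in 149 summit windows (23.4%, interval 20.3 to 26.8) and 97 flanks (15.2%). The replicates had 20.4%, 23.4% and 21.6% of summit windows against 15.4%, 15.3% and 15.7% of flanks, a difference of 6.31 ± 1.64 points. Near intergenic windows held GATA letters more often than promoter windows by 2.21 ± 1.59 points and less often than intronic and far intergenic windows by 2.01 ± 0.909 and 3.43 ± 2.33 points, with the same sign in every replicate. Peaks with GATA letters included those upstream of srp, pnt, ImpE1 and fz.

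Homeodomain letters were in 71 summit windows (11.1%) and 43 flanks (6.75%), a difference of 4.38 ± 0.757 points over replicates. In all, 8 motifs were higher at summits in every replicate. Beside GATA, homeodomain and Zelda these were the TATA box, Scalloped, Su(H), the DRE and BEAF-32. The TATA box letters were TATANAAN, with A or T at the first N and A or G at the last. They were in 39 windows against 25 flanks. Those of the Hippo pathway factor Scalloped were NCATTCCN, with A or G first and A or T last. These were in 10 windows against 3 flanks. The Notch pathway factor Su(H) had 7 against 4 and the DRE 3 against 0. BEAF-32 letters were in 26 thresholded summit windows and 31 flanks, the opposite order. With flanks 1000 bp to the left the TATA box had 39 windows against 38. With flanks 500 bp to the right Scalloped had 10 against 8 and Su(H) 7 against 6. The GAGA letters (GAGAG) were lower at summits in each replicate, in 42 windows (6.59%) against 87 flanks (13.7%), and those of the nuclear receptor FTZ-F1 were in 0 windows against 8 flanks. A count of 0 in 637 windows allows a share of up to 0.599% (Wilson interval, counting error only).

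Zelda letters were more frequent at the near intergenic summits than at promoter, intronic or far intergenic summits. They were in 20 of 637 windows (3.14%, interval 2.04 to 4.80), compared with 1.95% of promoter, 1.55% of intronic and 1.30% of far intergenic windows and 1.83% of all peaks. Wilson intervals overlapped that of near intergenic windows: 1.54 to 2.47 for promoter, 1.17 to 2.05 for intronic and 0.69 to 2.46 for far intergenic windows. Near intergenic windows reached 2.84%, 3.28% and 3.24% in replicates 1, 2 and 3, above those classes in each replicate. Each replicate held 81.6% to 86.5% of the thresholded near intergenic peaks, so the lists share most sites. Their agreement and SD do not cover the counting error of few windows. The differences were 1.19 ± 0.374 points from promoter, 1.28 ± 0.460 from intronic and 1.27 ± 0.333 from far intergenic windows (exact sign-flip permutation p = 0.25 each). Against their own flanks, with 12 windows, they were higher by 1.13 ± 0.538 points, whereas in all peaks the letters were lower at summits, with 147 windows against 203 flanks. The flank contrast narrowed to 0.31 points with flanks to the right and to 0.54 points with protein-coding gene models only. With the longer letters CAGGTAG, chosen after seeing the data, 5 near intergenic summits and 4 flanks matched, so most of the matches were to the shorter letters.

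The Zelda matches were spread over the ranking. Their ranks ran from 142 (kay) to 7104 (Ids), 16 of the 20 were found in all 3 replicates, and the rest in 2. Beside lncRNA:CR44853 and lncRNA:CR44854, both on 2L, matches ranked 557 and 984. Another lay 2438 bp upstream of peb, a gene of the crystal cell list that encodes the zinc finger factor Hindsight, at rank 6399.

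**Figure D5:**
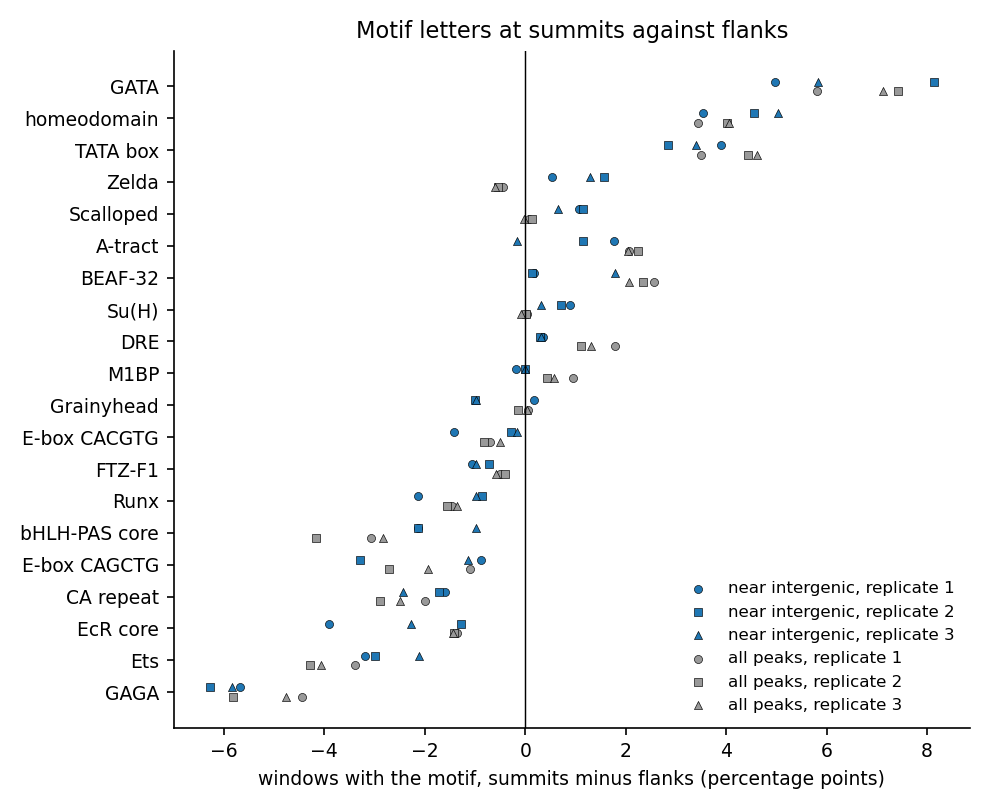
Difference between the shares of summit and flank windows with the letters of each of 20 motifs (x axis, percentage points) in the 3 replicates, for near intergenic peaks (blue) and all peaks (grey). Zelda lies right of 0 in near intergenic peaks and left of 0 in all peaks, and Runx lies left of 0 in both.

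Of the letters often found at promoters, those of the DRE, M1BP and BEAF-32 were less frequent at near intergenic than at promoter summits in each replicate, whereas TATA box letters differed by -0.10 ± 1.31 points. The DRE letters TATCGATA were in 3 near intergenic windows (0.471%) and 115 promoter windows (3.35%), a difference of -3.08 ± 0.553 points over replicates. The M1BP letters GGTCACACT were in 1 near intergenic window and 46 promoter windows (1.34%). BEAF-32 letters, CGATAT, which overlap those of the DRE, were in 4.08% of near intergenic and 8.04% of promoter windows. None of the 66 comparisons of near intergenic peaks with the other classes, 20 motif comparisons with flanks and 7 density comparisons could pass a threshold of 0.05; the smallest p adjusted by the Benjamini-Hochberg procedure was 0.393, 0.294 and 0.292 in these families.

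Gene lists were described by how many of their genes had a near intergenic peak at the nearest TSS, beside the background of 2.54% of protein-coding genes. The length of intergenic DNA beside each gene was not adjusted for. Peaks at 4 of the lists were not particular to this class. Genes nearest a peak of any class were 10 of 15 in the Hippo list, 13 of 16 in the Egfr list, 24 of 29 in the ecdysone list and 13 of 16 in the Wingless list. The share of all coding genes by that count is not given here. In the Hippo pathway, which restrains organ growth, 3 of 15 genes had such a peak, the same number in each replicate. These were ds (rank 108), the upstream regulator ex (995 bp upstream, rank 444; replicate ranks 315, 568 and 580) and ft (ranks 1252, 2434 and 4811). Fat and Dachsous are the receptor and ligand pair of the pathway's planar polarity branch.

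In the Egfr pathway, which acts in photoreceptor recruitment, 5 of 16 genes had a peak, with 4, 5 and 5 in the replicates. The Ets repressor gene aop had a peak 1501 bp upstream at rank 1568 (replicate ranks 1785, 1634 and 1389), and the Ets activator gene pnt 872 bp upstream at rank 3163 (4381, 2985 and 2805). The inhibitors ed, kek1 and sty had peaks at ranks 2902, 5232 and 7727, of which that of sty was found in 2 replicates. The ranks of this list thus began well below those of ds and ex. A further 3 summits, at ranks 481, 2160 and 2913, were nearest lncRNA:CR45737, between Ids and sty.

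Of 29 ecdysone response genes 7 had a peak, with 7, 7 and 6 in the replicates. The strongest lay 1492 bp upstream of Eip63E, a cyclin-dependent kinase gene, at rank 1111 (replicate ranks between 959 and 1627). Its gap was shared with ImpE2, an ecdysone-inducible gene of imaginal discs, which had its own summit 578 bp upstream at rank 2886. The nuclear receptor gene Eip75B had 2 summits, 536 and 737 bp upstream, at ranks 1941 and 4099. Blimp-1, which encodes a repressor that times prepupal development, had a peak at rank 2068 with replicate ranks of 2126, 1419 and 3149. ImpE1, Hr38 and Eip78C had peaks at ranks 3465, 4332 and 5395.

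Wingless pathway genes with a peak were 3 of 16, in each replicate as well. They were the receptor gene fz (1751 bp upstream, rank 616; replicate ranks 877, 580 and 487), the feedback inhibitor nkd (rank 1083) and fz3 (rank 5853). A single gene had a peak in the Dpp list (Dad, an inhibitory Smad, rank 3143, 1 of 16), the Hedgehog list (hh, rank 7961, 1 of 8), the insulin list (Thor, rank 7552, 1 of 15) and the E(spl) and Bearded list (E(spl)malpha-BFM, 1 of 8). The peak of Thor was found in no replicate.

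Of 13 crystal cell genes, 3 had a peak: srp, the GATA factor gene of blood cells (1500 bp upstream, rank 2423; replicate ranks 2757, 2465 and 2306), the zinc finger gene klu (rank 4316) and peb, with 2 summits at ranks 5214 and 6399 found in 2 replicates each; the replicates had 2, 2 and 3 such genes. Of 7 GATA factor and partner genes, srp and pnr (rank 7153) had a peak, with 1, 2 and 2 such genes in the replicates. Of 22 eye genes, ey and dac had peaks at ranks 6928 and 7311; the replicates had 0, 2 and 2 such genes. No thresholded near intergenic peak was nearest a gene of the Runx list of 7, which holds lz itself, or of 12 plasmatocyte genes. The same held for 21 Notch pathway genes, 8 JAK/STAT genes, 8 Hox genes and 24 leg, wing and antennal patterning genes. It held too for 19 proneural genes, 10 cell death genes and 16 stress genes. Replicates 1, 2 and 3 had 1, 0 and 0 genes of the Notch list and of the patterning list. They had 0, 0 and 1 proneural genes and 1, 1 and 0 stress genes. At the background of 2.54% lists this small can easily hold none, so a count of 0 is no result about them. A peak 1901 bp from the TSS of the cytochrome P450 gene Cyp6v1, at rank 3736, lay in a gap between RunxA, another Runx gene, and asRNA:CR45466.

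Among the large families, 8 of 123 cuticle protein genes (6.50%) had a peak, with 6, 7 and 5 in the replicates; the strongest were at Cpr72Eb (rank 1383), Cpr76Ba (1966) and Cpr72Ea (2375). Of 179 chemosensory receptor genes 6 (3.35%) had one, led by Gr93d at rank 151, Ir94h at 1070 and Gr89a at 1880. Shares were 2 of 93 for cytoplasmic ribosomal protein genes, 2 of 51 for odorant-binding protein genes, 1 of 85 for cytochrome P450 genes and 1 of 115 for histone genes, each within a few genes of the background. Of 290 tRNA genes 13 had a peak (4.48%), the strongest at tRNA:Ile-TAT-1-2, tRNA:Phe-GAA-1-6 and tRNA:Leu-CAA-2-2. Of 269 small nucleolar RNA genes 3 did, and of 260 microRNA genes none did. Long noncoding and antisense RNA genes had a peak at 163 of 3001 (5.43%), with 137, 177 and 153 in the replicates.

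Assigning each summit to both genes that flank its gap, in place of the nearest TSS, added genes to several lists. Of 13945 protein-coding genes 651 (4.67%) flanked a gap with a near intergenic peak. Under this assignment the ecdysone list had 11 of 29 genes, with hid, Hr3, ImpL2 and E23 added, and the GATA list had 4 of 7, with grn and GATAe added. The Notch list had fng alone, the JAK/STAT list upd1 alone, and the proneural list ato, nvy and sens. The Hippo list kept ex and ft, lost ds, whose start is overlapped by another gene at the edge of the gap, and gained fj, which encodes a kinase acting on Fat and Dachsous.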

How the data were processed

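Lozenge binding was measured by ChIP-seq in 3 biological replicates, numbered by the labels, with sonicated chromatin per the labels. For each replicate and for the pooled replicates the authors deposited 30000 peaks and background regions. They also deposited a further set, cut by the irreproducible discovery rate. The deposited file lists name 1 control alignment for peak calling. No aligner or caller is given in the sources used here. Each list's signal, a value of the authors for every peak, served only to rank peaks within a list, because lists differ in scale. The thresholded set was checked to hold the 8048 highest peaks of the pooled list, and 0 pairs of replicates had identical lists. Lists on the older dm3 build were not used.

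Summits were placed on dm6 with Ensembl release 115 gene models, whose names and lengths match for all 6 chromosomes used; positions count from 1. From each replicate the 8048 highest peaks were kept, and summits within 100 bp matched. Densities divide by the bases that meet the rule. Windows of 101 bp were compared with windows 500 bp to the left. MicroRNA genes were matched by symbols that begin with mir; 15 symbols of the lists had another name in the models and 1 could not be matched. Wilson intervals (95%) cover counting error only, peaks and genes are not independent replicates, and per the labels the replicates came from separate biological materials. The replicate lists share most sites, so SDs over replicates of base composition and motif shares do not cover counting error. The members, 30 gene lists and 20 motifs were chosen with earlier results of these data known. Genes were named by rule: the nearest-TSS genes of the 15 strongest peaks, the 6 genes with most peaks, up to 3 genes per list with the strongest peaks, and peaks nearest the rule's limits; others (the remaining genes with 3 peaks, further list members, neighbours across a gap and motif examples) were chosen after their values were seen. Functions were tested on simulated data (Python 3.11.15; matplotlib 3.10.9, scipy 1.17.1, pandas 2.3.3 and numpy 2.4.6). Alternatives covered the distance band, protein-coding models only, peak strength, matching, window, flank, gene assignment and each replicate.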

Additional observations from a re-analysis of the deposited data

How the results depend on the processing

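Of 357 recomputed values, 324 kept their direction, stayed within the spread or, for counts, stayed within a set factor of the main value. The percent upstream stayed within the spread in only 3 of 8 alternatives, and recovery in all 3 replicates in 4 of 8. Taking 501 to 2000 bp gave 76.7% of peaks upstream and a density 1.09 times that of the genome, and above 1000 to 3000 bp gave 419 peaks, 69.7% upstream and 0.848 times. At 501 to 5000 bp 70.5% were upstream, and with protein-coding models only 83.0%. The stronger peaks alone numbered 293, with 75.4% upstream and 172 coding genes; assignment to flanking genes gave 651 coding genes. Without a replicate, counting peaks found in both others, the median rank was 3102 to 3390. Recovery in all 3 replicates was 50.9% and 69.7% with matching within 50 and 200 bp, 35.3% with replicate lists cut to 4024 peaks and 90.6% with all 30000. With the shorter lists the recovery difference was -4.32 points from promoter peaks and 2.84 points from far intergenic peaks, both reversed; the first was also negative without replicate 2 (range over left-out replicates -3.68 to 5.78). Runx windows against promoter peaks changed sign with coding models (-0.13) and 100 bp windows (-0.27), and against far intergenic peaks with coding models (-0.25). BEAF-32 against intronic peaks crossed 0 without replicate 3 (range -0.00084 to 0.40). Against flanks, signs turned for CACGTG with wider windows (0.16), Grainyhead with right or distant flanks (0.16 and 0.31) and without replicate 3 (range over left-out replicates -1.04 to 0.22), and BEAF-32 with the same flanks (0.16 and 0.31); among stronger peaks Su(H) was at 0 and the bHLH-PAS core at 1.37. The causes were not tested. No paired analysis between groups of samples was possible because the samples form a single group. The sign-flip tests pair values within a replicate. Depth is unknown, so weak peaks cannot be told from missed ones.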
